A study of Mus musculus with 14 samples.

Results

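Tissue lying next to adenomas in the *Apc* Min/+ intestine was compared with the small intestine of healthy mice, and the report asks which cell types and pathways shifted together where single genes did not pass a test. The samples were chosen by their labels, which gave 5 of the 14 arrays of the series. Of these, 2 held tissue adjacent to adenoma (adjacent 1 and 2) and 3 held small intestine (small intestine 1 to 3), and all 5 were labelled as whole tissue. *Apc* Min is a nonsense allele of *Apc*, the scaffold protein of the complex that degrades β-catenin, and heterozygous mice form many adenomas, mostly in the small intestine. Both adjacent pieces came from 1 *Apc* Min/+ mouse (strain APCmin/+ in the labels), an animal that also gave the adenoma pieces, whereas the small intestine arrays came from 3 wild-type C57BL/6J adults. All mice of the study were on the C57BL/6J background, and *Apc* Min/+ mice were killed when their condition had deteriorated, at an age that the sources used here do not give. The sources used here give no segment of the small intestine for the healthy group, and the methods speak of mucosa for it. All 16 smooth muscle genes tested were nonetheless well above background on all 5 arrays. For *Apc* Min/+ mice the methods name adenomas and normal colon tissue, whereas the paper's results set adjacent tissue beside healthy small intestine. Which part of the intestine the adjacent pieces came from remains unclear. Mouse, genotype, health and closeness to a tumour therefore cannot be told apart here, and p-values set the spread between pieces of 1 mouse and between 3 mice against the difference of the groups.

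The lining of the small intestine is renewed from stem cells at the base of the crypts, which depend on Wnt signalling through β-catenin. Their progeny divide in the crypt and then mature on the villus into absorptive enterocytes with a brush border, or into goblet, enteroendocrine, tuft and Paneth cells. Beneath and between these cells lie T cells, plasma cells, vessels, fibroblasts and smooth muscle, so an array of whole tissue reads all of them at once.

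Levels are given as scaled log2 signal, the log2 of an array's processed intensity minus the 75th percentile of that array, and a difference is always the mean of the 2 adjacent arrays minus the mean of the 3 small intestine arrays. A gene was read from 1 probe, so levels are compared between samples and never between genes. Of 62976 spots per array, from 49.2% to 56.0% of probes were well above background. The median SD of a probe was 0.283 among the small intestine arrays and 0.191 between the adjacent arrays. The adjacent arrays correlated at 0.9792 with each other across probes, the small intestine arrays at 0.9693 to 0.9845, and arrays of different groups at 0.9406 to 0.9758. Small intestine 1 stood apart in sex-linked genes: *Eif2s3y* of the Y chromosome read 2.62 there and *Xist*, the RNA of the inactive X, read -7.33 and was not well above background, whereas *Xist* read -0.49, -1.23, 0.14 and 0.89 on small intestine 2 and 3 and on adjacent 1 and 2, where no Y-linked gene was well above background. *Apc* itself read -2.15, -1.84 and -1.79 in small intestine and -1.84 and -1.72 in adjacent tissue, which does not check the label because a nonsense allele can still be transcribed.

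Only *Gpx5* and *Gt(ROSA)26Sor* passed a log2 difference of 1.2 and an adjusted p of 0.01 in limma, 0.00921% of the 21726 genes tested, both higher in adjacent tissue. No gene was lower at these thresholds (0%). At an unadjusted p under 0.05 there were 2760 higher genes (12.7%) and 3884 lower genes (17.9%), and at an adjusted p of 0.05 there were 221 higher (1.02%) and 133 lower (0.612%). The calls at 0.05 needed all 5 arrays and the filter. Without small intestine 1 there were 7 higher and 7 lower, without small intestine 2 there was 1 higher and 0 lower, and without small intestine 3 there was none in either direction. Without adjacent 1 there were 76 and 19, without adjacent 2 there were 95 and 5, and with the slide as a block there were 1 and 0. An adjusted p between 0.01 and 0.05 is therefore printed below as the size of the evidence in these 5 arrays, and "passed 0.05" refers to it. A gene below that was not well above background in 1 group was tested only through the other group, which largely fixed its direction.

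*Gpx5*, an epididymal glutathione peroxidase that lacks selenocysteine, read -5.62, -6.31 and -5.93 in small intestine and 3.62 and 4.29 in adjacent tissue. It was not well above background on any small intestine array, and its signal was at least 350-fold higher in adjacent tissue (difference 9.91, SE 0.32, adjusted p = 0.00239). The probe lies at chr13:21378308-21378367 of mm9. Its neighbour *Gpx6*, a gene of the same family with a probe at chr13:21411049-21411108 of mm9, read -4.81, -5.76 and -4.56 against 1.42 and 2.79 (difference 7.14, adjusted p = 0.0266), with 1 of 3 small intestine arrays well above background, so that it passed the filter through adjacent tissue alone. Adjacent and healthy arrays did not overlap for either gene, and the mean of the adenoma arrays lay at 1.72 for *Gpx5* and -0.98 for *Gpx6*. Other epididymal genes did not move with them. Of 21 listed, 6 were tested, and *Lcn12*, *Ovch2*, *Serpina1f* and *Rnase10* differed by -0.15, -0.06, 0.16 and 0.63.

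*Gt(ROSA)26Sor*, a broadly transcribed noncoding gene used as a landing site for transgenes, read -3.31, -2.78 and -2.82 in small intestine and 2.71 and 2.97 in adjacent tissue, with its probe at chr6:113020400-113020459 of mm9. Its signal was 55.9-fold higher (difference 5.81, SE 0.26, adjusted p = 0.00789). The small intestine of the 3 wild-type mice was the low group, since the mean of the adenoma arrays was 2.30 and that of healthy colon 1.45.

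Among genes well above background on all 5 arrays, the largest higher difference belonged to *S100g* (calbindin-D9k), which buffers calcium during its uptake in the duodenum. It read 0.47, 0.73 and 3.097 in small intestine and 6.98 and 8.46 in adjacent tissue, a 78.2-fold difference (6.29, SE 0.88, adjusted p = 0.0467). *Trpv6*, the calcium channel that works with it, read -4.21, -4.16 and -3.39 against -1.33 and 0.35 (difference 3.43, adjusted p = 0.0491) and passed the filter through adjacent tissue alone. *Cited1*, a transcriptional coactivator, read -3.09, -2.41 and -2.30 against 1.08 and 2.81 (difference 4.54, adjusted p = 0.0415). *Aqp8*, a water channel, read -4.07, -2.61 and -1.82 against 0.68 and 3.34, and its difference of 4.84 had an adjusted p of 0.0582. For all 4 genes both adjacent arrays lay above every small intestine array, and adjacent 2 lay above adjacent 1. *Ifitm1*, an interferon-induced membrane protein, differed by 4.23 (adjusted p = 0.0455), and its near copy *Gm7676*, whose probe may share its signal, differed by 4.22. *Igfbp1*, a secreted binding protein of insulin-like growth factors, was at least 31.7-fold higher in adjacent tissue (adjusted p = 0.0421). *Sprr2f*, a cornified envelope protein, was at least 18.4-fold higher there (adjusted p = 0.0368) and *Chrdl2*, a BMP antagonist, at least 16.8-fold (adjusted p = 0.0266). None of *Igfbp1*, *Sprr2f* and *Chrdl2* was well above background on any small intestine array. They passed the filter through adjacent tissue alone, which largely fixed their direction.

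In the other direction, *Slc28a2b* and *Slc28a2*, near-identical nucleoside transporter genes on chromosome 2 whose probes may share signal, differed by -4.83 (adjusted p = 0.0468) and -4.18 (adjusted p = 0.0583). *Slc28a2* read 4.71, 6.22 and 7.41 in small intestine and 1.27 and 2.59 in adjacent tissue. *Apol9b* and *Apol9a*, lipid-binding apolipoprotein L genes of high similarity, differed by -4.75 (adjusted p = 0.0415) and -4.58 (adjusted p = 0.0441), and *Apol9b* read 5.90, 6.78 and 7.70 against 1.49 and 2.59. *Clca4a*, a chloride channel accessory protein of enterocytes, read 6.29, 7.04 and 7.58 against 2.92 and 2.17, a 21.5-fold difference (-4.42, adjusted p = 0.0345). *Ly6m* of the Ly6 surface protein family differed by -4.26 (adjusted p = 0.0404), and *Bmp8b*, a BMP ligand, read 1.04, 0.35 and 1.54 against -3.01 and -2.72 (difference -3.84, adjusted p = 0.0345). *Cyp3a44*, a cytochrome of drug metabolism, was not well above background in adjacent tissue and was at least 34.4-fold lower there (adjusted p = 0.0443). In each of these genes the highest adjacent array lay below the lowest small intestine array.

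To ask what moved together, 49 lists of cell types and pathways were read, each by the median difference of its tested genes. Some genes belong to more than 1 list, so the lists are not independent. The median over all genes tested was -0.10. As a description of single genes, a gene was called apart when both adjacent arrays lay above, or both below, all 3 small intestine arrays and the group means differed by at least 1. Of all genes, 1907 (8.78%) were apart and higher and 1643 (7.56%) apart and lower. Because both groups are bulk tissue, fewer cells of a type and less RNA per cell cannot be told apart in any of the lists below.

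**Figure D1:**
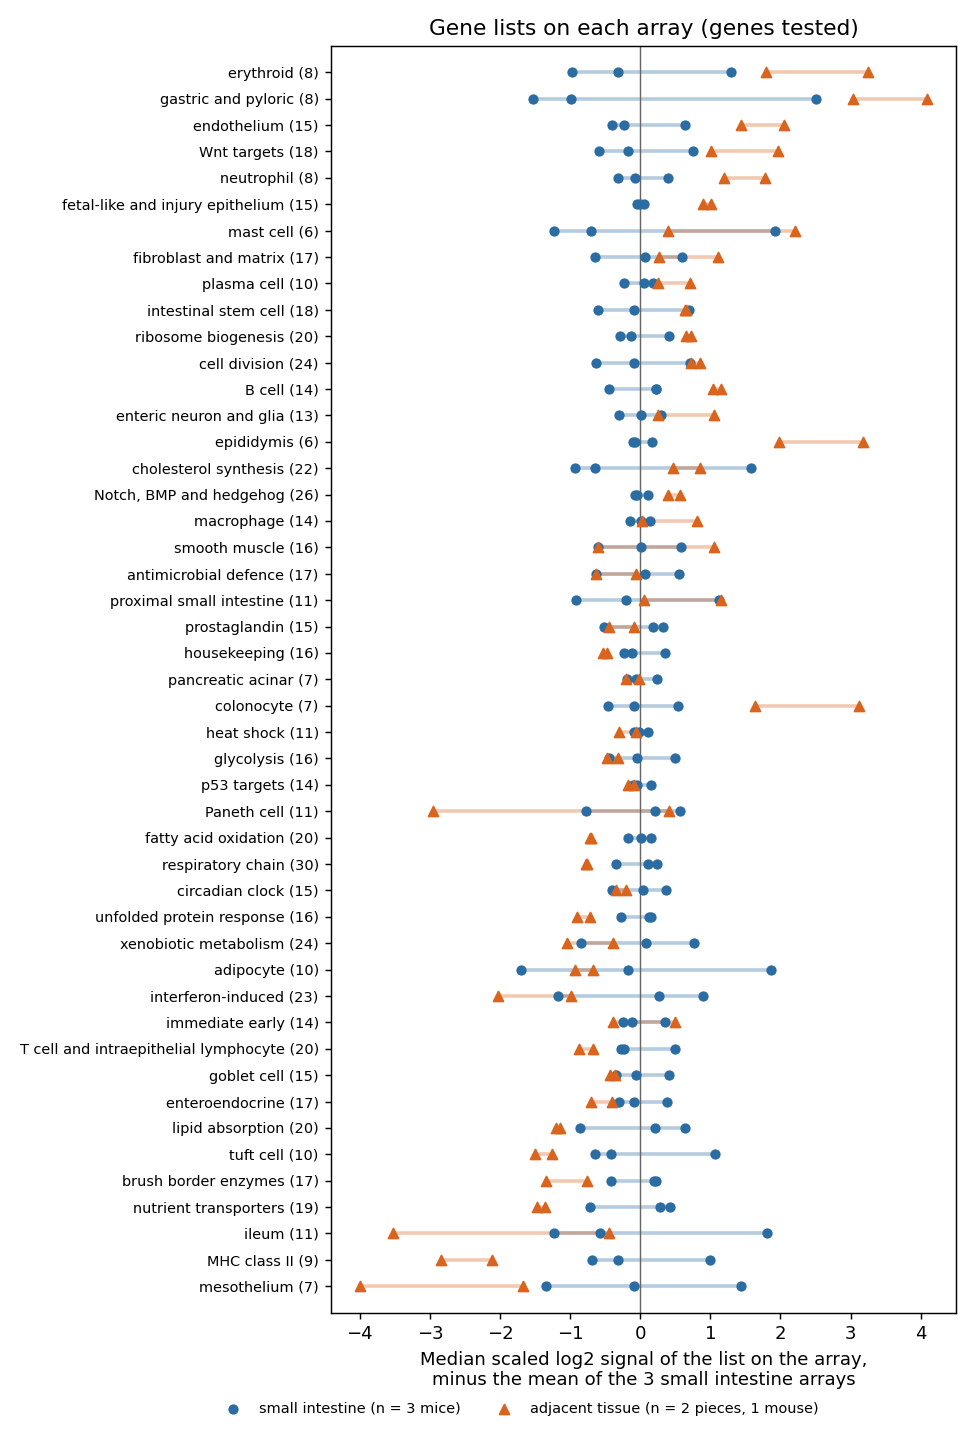
Median scaled log2 signal of each gene list on each array minus the mean of the 3 small intestine arrays, ordered by the median difference, with circles for small intestine, triangles for adjacent tissue and the number of genes tested beside each name. Endothelium, erythroid genes and Wnt targets lie to the right on both adjacent arrays, and MHC class II, T cells, brush border and transporters to the left.

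Antigen presentation by MHC class II had the lowest median difference of the immune lists. Class II molecules present peptides to CD4 T cells and are made by dendritic cells, macrophages and B cells, and also by villus enterocytes. Interferon-induced genes, switched on through STAT and IRF factors, were the other defence pathway that lay lower in adjacent tissue. Promoters of both groups are shown because the lists were chosen as targets of shared factors. Sequences are from RefSeq in GRCm38.p6, 120 bases ending at the annotated start of the gene, for members that were apart and had the motif in this stretch. Capitals mark GAAA repeated after any 2 bases, on either strand, the core repeat of an interferon-stimulated response element, in the first 5, and CTGATTGG, the Y box of class II promoters, in the last pair.
Oas3 (chr5:120777660-120777779, minus strand): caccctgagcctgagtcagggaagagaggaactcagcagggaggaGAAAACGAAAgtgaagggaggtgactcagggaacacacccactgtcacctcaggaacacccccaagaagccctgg
Ifit1 (chr19:34640769-34640888, plus strand): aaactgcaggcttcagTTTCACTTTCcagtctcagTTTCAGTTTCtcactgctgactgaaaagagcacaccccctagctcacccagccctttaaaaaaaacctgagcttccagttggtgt
Isg15 (chr4:156200819-156200938, minus strand): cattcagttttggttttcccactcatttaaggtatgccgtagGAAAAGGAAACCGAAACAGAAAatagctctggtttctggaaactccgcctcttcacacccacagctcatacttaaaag
Rsad2 (chr12:26456453-26456572, minus strand): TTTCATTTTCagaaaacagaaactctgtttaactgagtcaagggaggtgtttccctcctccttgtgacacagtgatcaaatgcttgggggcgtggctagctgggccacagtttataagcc
Oas1a (chr5:120907526-120907645, minus strand): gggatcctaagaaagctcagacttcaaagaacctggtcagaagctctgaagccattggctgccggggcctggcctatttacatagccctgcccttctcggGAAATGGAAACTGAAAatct
H2-Aa (chr17:34287824-34287943, minus strand): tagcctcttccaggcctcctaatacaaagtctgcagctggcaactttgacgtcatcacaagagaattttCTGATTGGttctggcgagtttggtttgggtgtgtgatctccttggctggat
H2-Eb1 (chr17:34305747-34305866, plus strand): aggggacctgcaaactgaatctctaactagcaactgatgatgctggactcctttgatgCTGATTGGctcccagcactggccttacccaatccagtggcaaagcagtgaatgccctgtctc
In windows of 300 bases, 250 before the start and 50 after it, the GAAA repeat was present in 13 of the 18 interferon-induced genes that have a window, against 3.44% of 32851 promoters. CTGATTGG was present in 3 of 7 class II genes, against 4.10% of promoters. A gene was counted if any of its windows had the motif, whereas the share over promoters counts single windows. Because the lists were chosen as targets of these factors, the higher shares say nothing about these samples. The genes with a motif included *Gbp2*, *Gbp3*, *Bst2* and *H2-Oa*, which were not lower in adjacent tissue. A match describes letters and shows no binding.

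Of 9 class II genes tested, 7 were lower and apart, against 7.56% of all genes, and 4 passed 0.05. The median difference was -2.23. *H2-DMb1*, a chain of the DM chaperone that loads peptide, read 5.32, 5.02 and 4.54 in small intestine and 2.21 and 2.12 in adjacent tissue (difference -2.79, SE 0.28, adjusted p = 0.0345). Its partner *H2-DMa* read 3.49, 3.11 and 3.16 against 1.001 and 0.29 (difference -2.61, adjusted p = 0.0384). *Cd74*, the invariant chain, read 7.06, 6.84 and 6.58 against 4.48 and 3.73 (difference -2.72, adjusted p = 0.0384). Every array of adjacent tissue lay well below every array of small intestine for these genes. The presenting chains behaved alike, with *H2-Ab1* at 8.58, 7.92 and 7.70 against 6.13 and 5.55 (adjusted p = 0.0484) and *H2-Aa* at 5.65, 4.01 and 3.64 against 2.22 and 1.48 (adjusted p = 0.0744). *Ciita*, the coactivator that class II genes depend on, read -2.05, -2.59 and -2.50 against -3.47 and -4.12, a difference of -1.42 that had an adjusted p of 0.0617. *H2-Oa* and *H2-Ob*, the DO chains made chiefly in B cells, differed by 0.74 and 0.21. The adenoma median of the list was 0.83, against adjacent medians of 2.21 and 1.48. *B2m*, the light chain of class I molecules, read 7.90, 8.31 and 8.57 against 7.08 and 7.01 (difference -1.21, adjusted p = 0.0634).

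Interferon-induced genes had a median difference of -0.87, with 17 of 23 lower and 9 apart and lower, and none passed 0.05, although 12 had an unadjusted p under 0.05 (17.9% of all genes did so on that side). *Oas3*, which makes the activator of RNase L, read -0.18, 0.38 and 1.13 in small intestine and -3.47 and -1.23 in adjacent tissue (difference -2.79, adjusted p = 0.0788). *Ifit1*, a sensor of uncapped RNA, read 0.90, 2.18 and 2.45 against -1.74 and 0.06 (difference -2.68, adjusted p = 0.0773). *Irf7*, the factor that amplifies the response, read 2.63, 3.30 and 3.80 against 0.95 and 1.19 (difference -2.17, adjusted p = 0.0514). Adjacent 1 was the lowest array for all 3. *Isg15*, a ubiquitin-like modifier, read 4.19, 5.52 and 6.02 against 2.55 and 3.75. The guanylate-binding protein genes *Gbp2* and *Gbp3* went the other way by 0.60 and 0.48, and *Ifit2* and *Bst2* differed by 0.12 and 0.04. Outside the list, the 5 genes tested of the Ifitm family were all higher, by 0.75 to 4.23. The small intestine arrays themselves ranged from 0.01 to 2.08 in the median of the list, with small intestine 1 the lowest, and adjacent 2 at 0.18 lay above it. The median difference was -1.357 without small intestine 1 and -1.474 without adjacent 2.

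**Figure D2:**
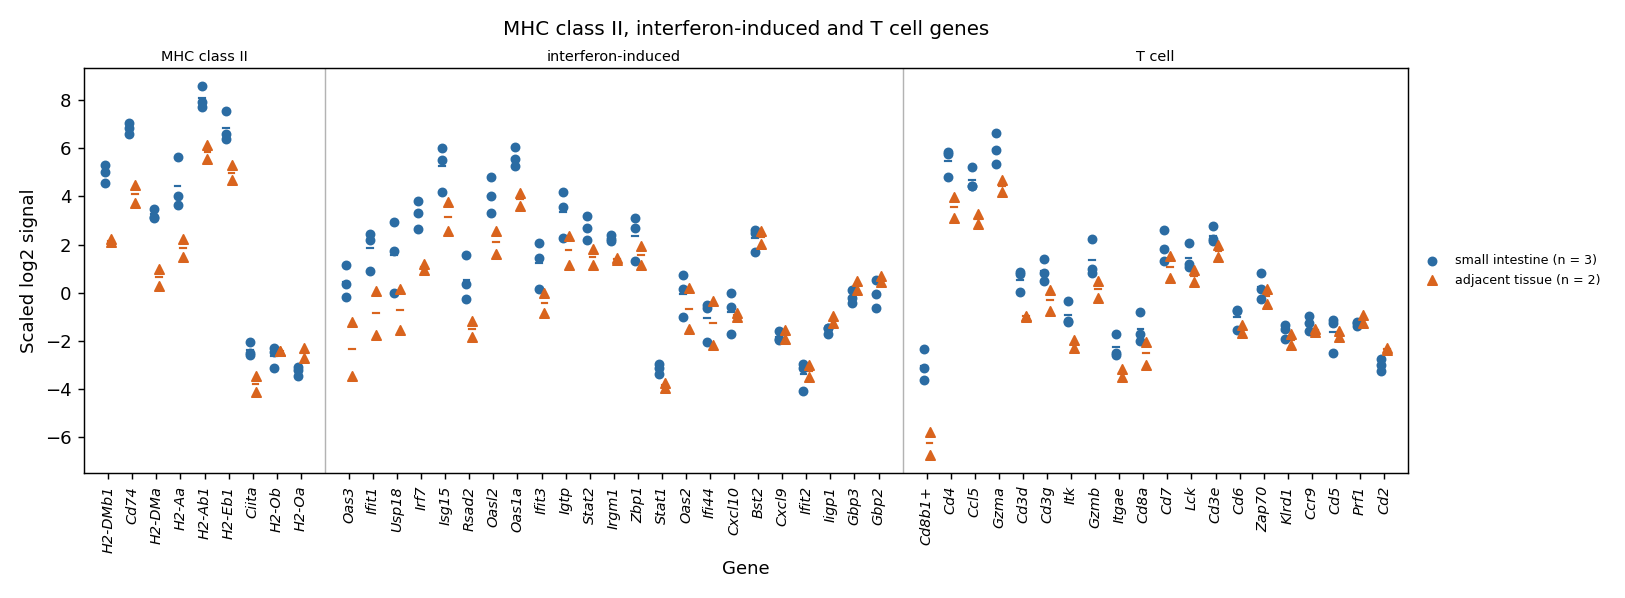
Scaled log2 signal of class II, interferon-induced and T cell genes on each of the 5 arrays, with circles for small intestine, triangles for adjacent tissue and short lines for group means. Class II genes other than *H2-Oa* and *H2-Ob* lie lower on both adjacent arrays, whereas the interferon-induced genes also spread among the small intestine arrays.

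T cell and intraepithelial lymphocyte genes were lower in 18 of 20 cases (median difference -0.93), with 10 apart and lower and *Cd8b1* past 0.05, the 1 gene that passed the filter through small intestine alone. Without small intestine 3 the median was -0.576. *Cd8b1*, the β chain of the CD8 co-receptor, read -3.14, -3.62 and -2.35 in small intestine and was not well above background in adjacent tissue, at least 2.72-fold lower there (adjusted p = 0.0467). *Cd4* read 4.81, 5.76 and 5.86 against 3.97 and 3.12 (difference -1.94, adjusted p = 0.0654), and *Ccl5*, a chemokine of cytotoxic cells, 4.43, 4.43 and 5.23 against 2.85 and 3.27 (difference -1.64, adjusted p = 0.0599). *Gzma*, a granzyme of intraepithelial lymphocytes, read 5.34, 5.93 and 6.62 against 4.16 and 4.68. Subunits of the T cell receptor complex lay lower too, with *Cd3d* at a difference of -1.52, *Cd3g* at -1.22 and *Cd3e* at -0.64. *Cd2* and *Prf1* differed by 0.66 and 0.20.

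B cell and plasma cell genes leaned the other way. Of 14 B cell genes tested, 11 were higher (median 0.74) and 5 apart and higher, but 7 of the 14 passed the filter through adjacent tissue alone, which largely fixed their direction. With probes well above background on all 5 arrays the median was 0.167, with the authors' normalized values it was 0.204, without small intestine 2 it was 0.422 and without adjacent 1 it was 0.478. *Bank1*, a B cell adaptor, was not well above background in small intestine and was at least 1.35-fold higher in adjacent tissue (adjusted p = 0.0384). *Cd79b*, a chain of the B cell receptor, was measured on every array and read -0.95, -1.09 and -1.05 against -0.03 and 0.34 (difference 1.18, adjusted p = 0.0548). *Cxcl13*, the chemokine of B cell follicles, read -4.01, -6.17 and -6.63 against -2.17 and -2.17 (difference 3.43, adjusted p = 0.0663). *Spib*, a factor of B cells that M cells and tuft cells also use, differed by -1.24. Plasma cell genes had a median difference of 0.95, with 5 of 10 apart and higher, 1 apart and lower and none past 0.05 (5 higher and 1 lower at an unadjusted p under 0.05). *Tnfrsf13b*, a receptor for plasma cell survival factors, read -2.40, -2.33 and -2.85 against -1.25 and -0.61 (difference 1.59, adjusted p = 0.0548), and *Mzb1*, a chaperone of antibody assembly, -0.60, -1.26 and -1.66 against 0.18 and 0.38. The other tested probe of *Tnfrsf13b* differed by 0.325. *Jchain*, the joining chain of IgA, read 5.23, 5.60 and 4.25 against 5.84 and 5.83. Without small intestine 3 the median of the plasma cell list was 0.63.

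Macrophage genes showed little common shift (median 0.35, or 0.078 without adjacent 1 and 0.921 without adjacent 2, 1 apart in each direction). *Cx3cr1*, the fractalkine receptor, differed by 1.09 and *Itgam*, an integrin chain, by -1.35 (adjusted p = 0.0614 and 0.0731). The other tested probe of each gene moved little, by 0.21 for *Cx3cr1* and -0.142 for *Itgam*. Neutrophil genes were higher in 7 of 8 cases (median 1.19), 3 of which passed the filter through adjacent tissue alone. The single gene past 0.05, *S100a9*, a subunit of calprotectin, was one of these and read -4.44, -4.92 and -4.02 against -2.13 and -1.68 (difference 2.56, adjusted p = 0.0421), and *Ltf*, lactoferrin, read -3.04, -3.19 and -2.04 against -0.88 and 1.98. The defining granule gene *Camp* differed by -0.10. Mast cell protease genes varied within both groups: *Mcpt1* read -0.98, -2.33 and 2.85 in small intestine and 2.90 and -0.36 in adjacent tissue, so that small intestine 3 and adjacent 1 were high and the groups overlapped.

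Antimicrobial genes did not move as a set (median 0.15, 9 higher and 8 lower, a sign that depended on the processing). The members that were apart and lower serve oxidant defence and tryptophan breakdown. *Ido1*, indoleamine dioxygenase, read -0.47, -1.26 and 0.36 against -3.76 and -4.72 (difference -3.78, adjusted p = 0.0467). *Duoxa2* and *Duox2*, which form the epithelial hydrogen peroxide source, differed by -3.12 and -2.59 (adjusted p = 0.104 and 0.129), with small intestine 3 highest for both. The C-type lectins *Reg3b* and *Reg3g* differed by 0.55 and 0.15, and *Reg1* read 1.55 on adjacent 1 and 8.03 on adjacent 2.

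Genes of the absorptive enterocyte lay lower in adjacent tissue in nearly all cases. All 17 brush border genes tested were lower (median -1.29), 13 without overlap against 31.1% of all genes, and 10 were apart. None passed 0.05, and 11 had an unadjusted p under 0.05. *Sis*, sucrase-isomaltase, read 7.56, 8.54 and 8.52 in small intestine and 6.79 and 6.67 in adjacent tissue (difference -1.48, adjusted p = 0.0725). *Dpp4*, the dipeptidyl peptidase of the brush border, read 5.25, 5.47 and 5.68 against 4.23 and 3.60 (difference -1.55, adjusted p = 0.0542). *Alpi*, intestinal alkaline phosphatase, read 5.67, 5.98 and 6.95 against 4.46 and 4.74. The protocadherins that link microvilli, *Cdhr5* and *Cdhr2*, differed by -1.75 and -1.60 (adjusted p = 0.0505 and 0.054). *Vil1*, villin, read 8.63, 8.79 and 9.18 against 7.88 and 7.46. *Lct*, lactase, broke the pattern, with 5.92 on small intestine 1, 9.38 and 9.39 on small intestine 2 and 3, and 7.78 and 8.21 on the adjacent arrays. The median of the list was 6.97, 6.34 and 6.95 in small intestine, 6.00 and 5.41 in adjacent tissue and 3.35 in adenoma.

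Nutrient transporters showed the same shift (median -1.36, 18 of 19 lower, 10 apart and lower), and *Slc3a1* and *Pdzk1* passed 0.05. *Slc3a1*, the heavy chain of the cystine and dibasic amino acid transporter, read 5.23, 5.12 and 5.33 against 3.69 and 2.96 (difference -1.90, adjusted p = 0.0467). *Pdzk1*, a scaffold that holds transporters at the brush border, read 7.16, 7.35 and 7.54 against 5.81 and 5.26 (difference -1.81, adjusted p = 0.0467). *Slc6a19*, the carrier of neutral amino acids, read 4.82, 4.89 and 4.84 against 3.48 and 2.52 (difference -1.85, adjusted p = 0.0514). These 3 genes varied little among the healthy mice. *Slc5a1*, the sodium-glucose carrier, read 2.93, 4.46 and 4.93 against 2.29 and 2.56, and *Slc15a1*, the peptide carrier, 3.04, 3.19 and 3.54 against 2.37 and 1.24. *Slc2a2* and *Slc2a5*, carriers of glucose and fructose, overlapped between the groups (differences -1.25 and -0.17).

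Lipid absorption followed, with 17 of 20 genes lower (median -1.14), 7 apart and lower, none past 0.05 and 11 at an unadjusted p under 0.05. *Npc1l1*, the cholesterol uptake protein, read 5.90, 6.64 and 6.88 against 5.03 and 4.37 (difference -1.77, adjusted p = 0.0617). *Apoa1*, an apolipoprotein that enterocytes secrete, read 8.11, 8.98 and 9.11 against 7.41 and 7.01 (difference -1.52, adjusted p = 0.0719). *Dgat2*, which makes triglyceride, read 6.20, 7.04 and 7.46 against 5.42 and 5.54. *Fabp2*, the intestinal fatty acid binding protein, read 9.71, 10.17 and 10.23 against 9.92 and 9.41 and overlapped. In this list small intestine 1 lay closest to adjacent tissue, with a median of 6.14 against 7.20 and 7.63 on the other healthy arrays and 5.78 and 5.84 on the adjacent ones.

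Regional markers varied widely among the healthy arrays themselves. *Fabp6*, the bile acid binding protein of the ileum, read 9.95 on small intestine 1, where its spot was saturated, 1.60 and -1.74 on small intestine 2 and 3, and 8.12 and -0.83 on adjacent 1 and 2. *Slc10a2*, the ileal bile acid transporter, read 5.56, -1.94 and -2.11 against 0.55 and -1.55. *Gata4*, a factor of the proximal intestine, read 1.06, 2.70 and 3.32 against 2.03 and 2.67, and *Onecut2*, a duodenal factor, -2.38, 1.41 and 2.93 against 0.12 and 4.19. Small intestine 1 and adjacent 1 thus had the higher ileal and lower proximal signals, and small intestine 2 and 3 and adjacent 2 the reverse. The part of region in any list was not tested. Within slide 1, which held small intestine 1 and 3 with adjacent 1, and within slide 2, which held small intestine 2 with adjacent 2, the brush border and class II medians were below 0 both times.

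The ileum list had a median difference of -1.97 (10 of 11 lower, 5 apart and lower), which was -0.675 without adjacent 2. Its medians on the arrays overlapped, at 5.56, 3.17 and 2.52 in small intestine and 3.31 and 0.22 in adjacent tissue. The hormone genes *Nts*, *Pyy* and *Gcg* are also in the enteroendocrine list, and *Nts* and *Pyy* were apart and lower (-3.38 and -3.17). The proximal list had a median difference of 0.00. *Cubn*, the ileal receptor for intrinsic factor and vitamin B12, stayed even among the healthy arrays at 6.81, 6.72 and 6.36 and read 4.82 and 4.03 in adjacent tissue (difference -2.21, adjusted p = 0.0467). Its membrane partner *Amn* read 5.95, 6.16 and 6.08 against 4.77 and 3.41 (difference -1.97, adjusted p = 0.0616). *Slc51b*, a chain of the basolateral bile acid exporter, read 6.18, 4.75 and 5.02 against 3.94 and 2.47. The colonic genes *Aqp8*, *B3galt5* and *Aqp4* were apart and higher, while *Car1*, *Car4* and *Slc26a3* overlapped. The median of the colonocyte list changed sign with the processing.

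**Figure D3:**
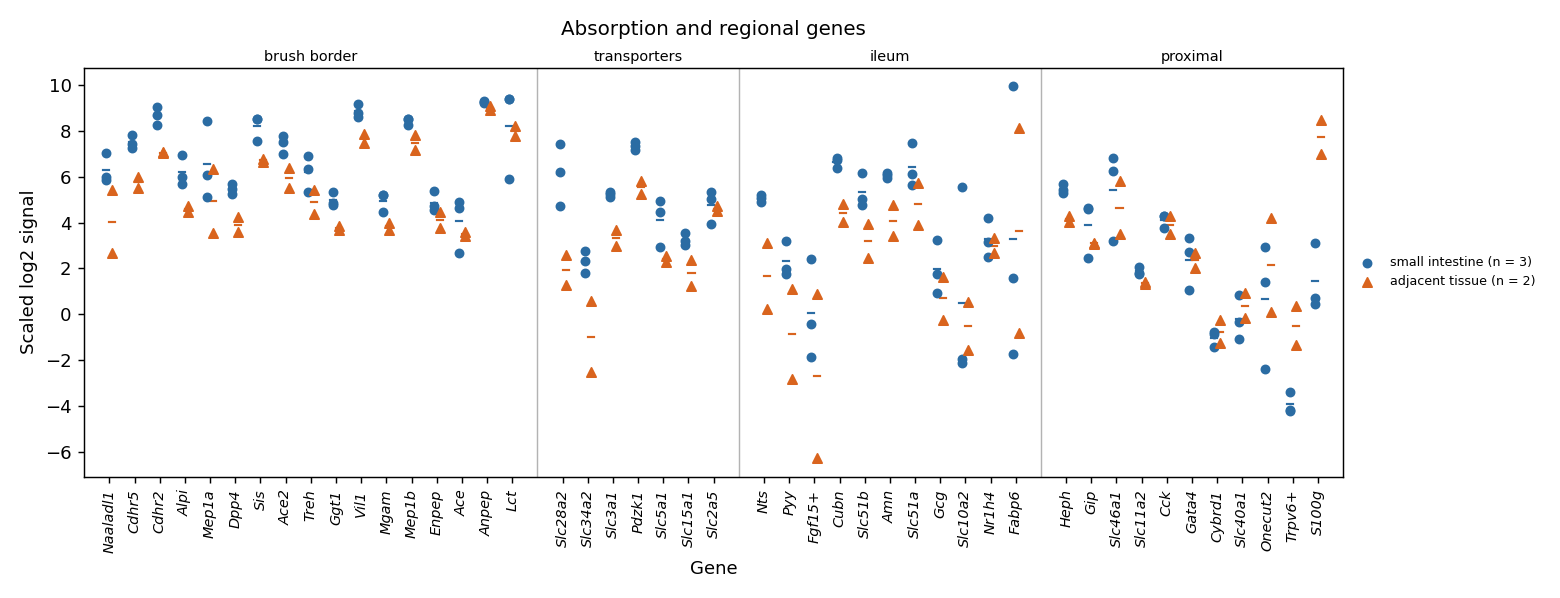
Scaled log2 signal of brush border, ileal and proximal genes and some transporters on each of the 5 arrays, with circles for small intestine, triangles for adjacent tissue and short lines for group means. Most of the brush border and transporter genes shown sit lower on both adjacent arrays, with *Lct* and *Slc2a5* among those that overlap. *Fabp6* and *Slc10a2* spread widely within small intestine, and *S100g* and *Trpv6* sit higher in adjacent tissue.

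Secretory lineages other than Paneth cells lay lower. Goblet cell genes had a median of -0.98 with 12 of 15 lower, 7 apart and lower and none past 0.05 (9 at an unadjusted p under 0.05). *Clca1*, a secreted protein of goblet cells, read 8.83, 8.33 and 9.11 in small intestine and 7.06 and 5.69 in adjacent tissue (difference -2.38, adjusted p = 0.0573). *Tff3*, the trefoil factor packed with mucus, read 9.25, 9.44 and 9.43 against 8.40 and 7.37, and *Muc2*, the gel-forming mucin, 6.69, 5.74 and 6.17 against 5.57 and 4.67. *Atoh1*, the factor that opens the secretory lineage, read 2.33, 1.42 and 1.68 against 0.95 and 0.29. The endoplasmic stress genes that secretory cells use were also lower, with 13 of 16 below 0 (median -0.70, 4 apart and lower, none past 0.05 and 7 at an unadjusted p under 0.05), among them *Dnajb9* at a difference of -1.82.

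Enteroendocrine genes were lower in 15 of 17 cases (median -1.03, 8 apart and lower), and *Sct* and *Neurod1* passed 0.05. The median was -0.463 in the authors' normalized table, -0.518 within slide 1 and -0.669 without adjacent 2. *Sct*, secretin, read 7.13, 6.88 and 6.92 against 5.21 and 4.65 (difference -2.04, adjusted p = 0.0415). *Neurod1*, a late factor of the lineage, was not well above background in adjacent tissue and was at least 2.08-fold lower there (adjusted p = 0.0473). *Chga* and *Chgb*, granule proteins of most endocrine cells, differed by -1.08 and -1.14 (adjusted p = 0.0711 and 0.0563). *Neurog3*, the factor that starts the lineage in crypt progenitors, went the other way and read 0.04, -0.04 and -0.91 against 1.08 and 1.39 (difference 1.54, adjusted p = 0.0677). Tuft cell genes had a median of -1.16 with 6 of 10 apart and lower and none past 0.05 (7 at an unadjusted p under 0.05). *Trpm5*, the taste channel of tuft cells, read 0.08, 0.55 and 2.05 against -0.60 and -0.76, and *Dclk1* -0.63, -0.94 and 0.10 against -1.29 and -1.70, with small intestine 3 the highest array for both. All 11 Paneth cell genes were nominally lower (median -0.53, 1 apart), but the low array was adjacent 2: *Defa21* read 9.64, 9.60 and 7.57 in small intestine, 9.63 on adjacent 1 and 5.24 on adjacent 2, and *Lyz1*, lysozyme, 8.79, 9.29 and 8.15 against 9.10 and 7.32. The sign of the Paneth median depended on the processing.

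All 18 Wnt target genes tested were nominally higher (median 1.44), 12 without overlap against 21.8% of all genes, 10 apart against 8.78%, and *Lef1* passed 0.05. *Lef1* and *Prox1* passed the filter through adjacent tissue alone, which favoured a higher signal there, with 2 and 1 of 3 small intestine arrays well above background. *Lef1*, a nuclear partner of β-catenin and itself a target, read -4.12, -4.10 and -3.95 in small intestine and -2.01 and -0.91 in adjacent tissue (difference 2.60, adjusted p = 0.0448). *Nkd1*, a feedback inhibitor, read 0.11, 0.49 and -0.39 against 1.71 and 2.48 (difference 2.03, adjusted p = 0.0542). *Myc* read -0.45, -0.93 and -1.60 against 0.27 and 1.34 (difference 1.80, adjusted p = 0.0785). The inhibitors *Dkk2* and *Dkk3* differed by 2.21 and 1.55. Several of the most direct targets did not share the shift, since *Axin2* read 0.29, -1.02 and -1.203 against 0.08 and -0.39, *Notum* read 3.50, 3.65 and 4.31 against 3.57 and 4.08, and *Sp5* differed by 0.10. The median of the list was 0.18, -0.75 and -1.15 on the small intestine arrays, 0.44 and 1.39 in adjacent tissue and 3.32 in adenoma, so that small intestine 1 came close to adjacent 1.

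Stem cell genes had a median of 0.95, with 14 of 18 higher, 7 apart and higher, 1 apart and lower and none past 0.05 (10 higher at an unadjusted p under 0.05). The median of the list was 2.21, 1.43 and 0.93 on the small intestine arrays and 2.17 and 2.16 in adjacent tissue, so that small intestine 1 lay above both adjacent arrays. *Lgr5*, the receptor that marks crypt base stem cells, read 0.26, -0.57 and -1.10 against 0.61 and 1.43 (difference 1.49, adjusted p = 0.105). *Tnfrsf19* read -1.199, -1.12 and -2.27 against 0.06 and 0.15 (difference 1.64, adjusted p = 0.072) and *Smoc2*, a matricellular protein of stem cells, 4.10, 3.94 and 2.92 against 4.61 and 4.99. The other tested probe of *Tnfrsf19* differed by 0.724. *Olfm4* read 2.56, 1.65 and 0.93 against 2.98 and 2.14 and overlapped. *Ephb2*, the receptor by which the study sorted crypt cells, differed by -0.10 and *Ephb3* by 0.91. *Bmi1* and *Hopx*, markers of a reserve population, differed by -0.27 and 0.20.

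Cell division genes were higher in 23 of 24 cases (median 0.88), 16 without overlap against 21.8% of all genes and 5 apart against 8.78%. None passed 0.05, with 7 at an unadjusted p under 0.05 (12.7% of all genes on that side). *Mki67* read 4.01, 3.32 and 2.64 in small intestine and 4.28 and 4.68 in adjacent tissue (difference 1.16, adjusted p = 0.137). *Mcm3*, a subunit of the replicative helicase, read 2.78, 1.68 and 1.42 against 3.17 and 3.34 (difference 1.29, adjusted p = 0.116), and *Top2a* 1.28, 0.32 and -0.15 against 1.41 and 1.76. Small intestine 1 was the highest healthy array for these 3 genes, and the median of the list was 2.31 there, 1.51 and 0.97 on small intestine 2 and 3, and 2.32 and 2.45 in adjacent tissue. Without small intestine 3 the median difference was 0.583. *Pcna* differed by -0.08. Ribosome biogenesis showed the same order (median 0.95, 18 of 20 higher, 8 apart, none past 0.05 and 12 at an unadjusted p under 0.05), with *Nop56*, a box C/D protein, at 3.003, 2.36 and 1.91 against 3.66 and 4.28.

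Genes that mark fetal-like and injured epithelium had a median of 1.13 with 13 of 15 higher and 7 apart. *Clu*, clusterin, read 1.67, 2.83 and 3.68 in small intestine and 5.76 and 7.33 in adjacent tissue (difference 3.82, adjusted p = 0.0548). *Spp1*, osteopontin, was not well above background in small intestine and was at least 13.2-fold higher in adjacent tissue (adjusted p = 0.0518). *Anxa1* read 0.60, 1.76 and 0.54 against 2.96 and 3.76 (difference 2.39, adjusted p = 0.0573), and *Ly6a* 0.04, 0.42 and -0.33 against 1.197 and 1.67. The growth factors *Areg* and *Ereg* differed by 0.17 and -0.19. Of 8 gastric genes tested all were nominally higher (median 2.58), but 7 of them passed the filter through adjacent tissue alone. *Gkn2*, a gastrokine, was at least 12.4-fold higher (adjusted p = 0.0345) and *Gkn1* at least 1.55-fold (adjusted p = 0.0467). *Tff1* read -7.21, -6.34 and -0.82 in small intestine and -1.22 and -0.19 in adjacent tissue, with small intestine 3 near the adjacent arrays, and *Muc5ac* differed by 1.81.

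Signals that pass between crypt epithelium and stroma differed in both directions. *Hhip*, a hedgehog-binding inhibitor that hedgehog induces, read -1.75, -1.21 and -1.97 in small intestine and 1.27 and 1.30 in adjacent tissue (difference 2.92, SE 0.28, adjusted p = 0.0345). *Ptch1*, the hedgehog receptor and likewise a target, read -3.72, -3.56 and -3.79 against -1.87 and -1.33 (difference 2.09, adjusted p = 0.0404). The ligand *Ihh*, made by villus epithelium, read 4.73, 4.73 and 5.29 against 4.17 and 4.49, and the target *Gli1* overlapped. *Bmp5*, which passed the filter through adjacent tissue alone, differed by 2.47 (adjusted p = 0.0484) and *Bmp4* by 1.33, whereas the BMP response genes *Id2*, *Id3* and *Smad7* differed by -1.06, -0.89 and -1.23. *Grem1*, a BMP antagonist of the stroma below crypts, read 2.39, 2.48 and 0.80 against 3.93 and 2.63. Over the 26 genes of Notch, BMP and hedgehog signalling, 8 were apart and higher and 2 apart and lower, and the median of 0.35 was 0.183 without small intestine 1 and 0.188 without adjacent 2.

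**Figure D4:**
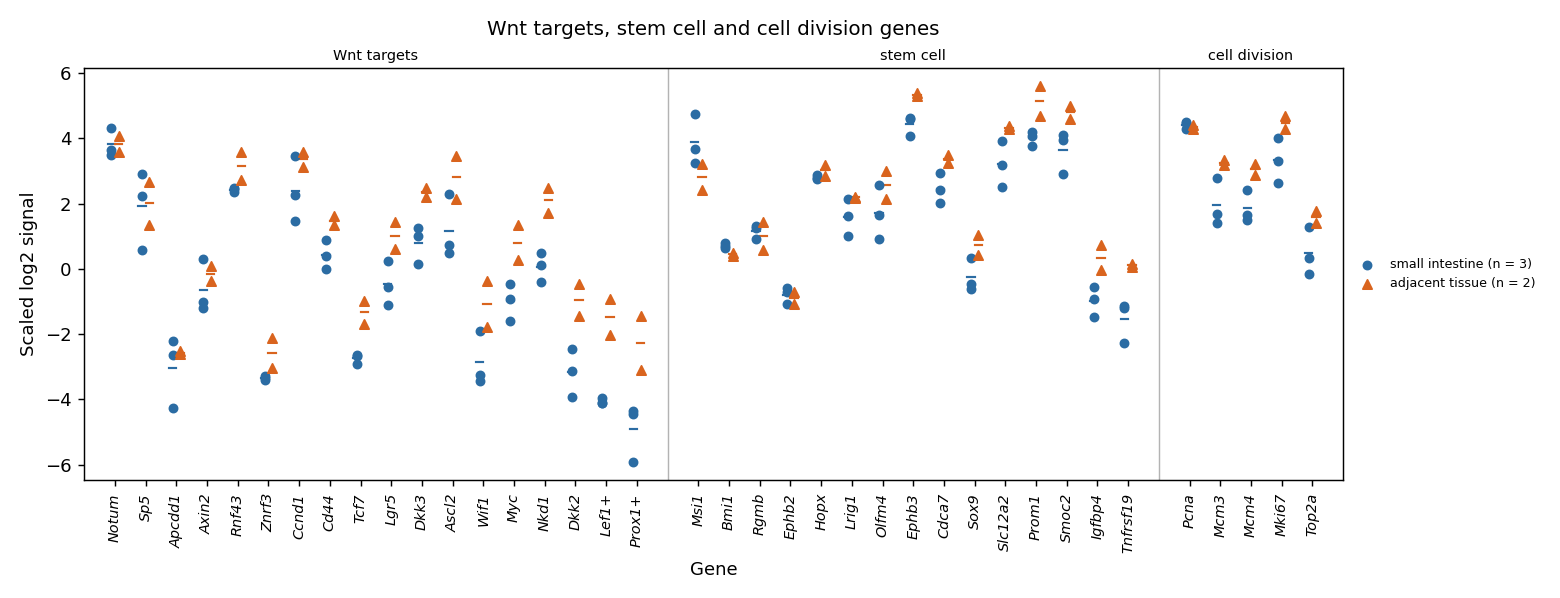
Scaled log2 signal of all Wnt targets tested and of some stem cell and cell division genes on each of the 5 arrays, with circles for small intestine, triangles for adjacent tissue, short lines for group means and a plus sign after genes not well above background on all arrays. Both adjacent arrays lie above all small intestine arrays for 12 of 18 Wnt targets, whereas *Ephb2*, *Bmi1* and *Pcna* overlap or lie slightly lower.

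Vessels and blood showed the largest shift among stromal cells. Of 15 endothelial genes, 14 were higher (median 1.94), 11 apart, and *Flt1*, *Cdh5*, *Plvap*, *Emcn* and *Eng* passed 0.05. *Flt1*, a VEGF receptor, read -1.50, -0.62 and -1.15 in small intestine and 1.78 and 3.06 in adjacent tissue (difference 3.51, adjusted p = 0.0421). *Cdh5*, the cadherin of endothelial junctions, read -2.86, -2.25 and -2.79 against 0.06 and 0.998 (difference 3.16, adjusted p = 0.0398). *Plvap*, a protein of fenestrated capillaries, read 0.36, 1.21 and 0.75 against 2.81 and 3.35 (difference 2.31, adjusted p = 0.0467). *Emcn* and *Eng*, surface proteins of endothelium, differed by 2.29 and 1.999 (adjusted p = 0.0415 and 0.0467). The healthy and adjacent arrays did not overlap for any of these. *Kdr*, the main VEGF receptor, did not share the shift and read 3.32, 3.74 and 3.91 against 3.65 and 3.11, while *Pecam1* differed by 0.82 and the lymphatic marker *Lyve1* by 0.23. The adenoma median of the list, 0.72, lay between those of adjacent 1 and 2 (0.18 and 0.80).

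All 8 erythroid genes tested were higher and apart (median 3.15), 2 of which passed the filter through adjacent tissue alone. *Hba-a2*, an α-globin gene, read 3.30, 4.81 and 3.68 against 7.45 and 7.82 (difference 3.71, adjusted p = 0.0415), and the β-globin *Hbb-bt* 0.50, 2.22 and 1.015 against 5.14 and 4.52 (difference 3.58, adjusted p = 0.0467). Probes of globin copies can share signal. *Alas2*, the erythroid enzyme of haem synthesis, differed by 4.48 (adjusted p = 0.0467), and *Ahsp*, the chaperone of α-globin, was at least 2.83-fold higher (adjusted p = 0.0345). The adenoma median was 2.50. Whether red cells or their precursors in the pieces took part in the endothelial shift was not tested.

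Other stromal lists moved less. Fibroblast and matrix genes had a median of 0.99 with 8 of 17 apart and higher and none past 0.05 (6 higher and 1 lower at an unadjusted p under 0.05). *Pdgfra*, the receptor of subepithelial fibroblasts, read -1.50, -1.14 and -2.60 against 0.71 and 1.28 (difference 2.74, adjusted p = 0.0514), and *Col6a1* 1.56, 2.11 and 0.56 against 3.09 and 2.58. *Dcn* and *Lum*, proteoglycans of connective tissue, overlapped (differences -0.17 and 0.29). The fibroblast median was 1.79 within slide 1, -0.30 within slide 2, 0.551 without adjacent 1 and 0.618 without small intestine 3. Smooth muscle genes overlapped in all 16 cases: *Actg2*, the enteric actin, read 5.53, 6.90 and 4.88 in small intestine and 7.15 and 4.65 in adjacent tissue, so that muscle signal varied as much within each group as between them. Enteric neuron and glia genes had a median of 0.62 (0.220 without adjacent 1 and 1.074 without adjacent 2) with 1 gene apart in each direction, among them *Snap25* of neurons at -1.35.

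Mesothelial genes of the outer surface were lower in all 7 cases (median -2.94), with 5 apart and none past 0.05 (5 at an unadjusted p under 0.05), and 4 of the 7 passed the filter through small intestine alone. *Upk3b* read -2.23, -0.39 and -3.24 in small intestine and was at least 5.78-fold lower in adjacent tissue, where it was not well above background. *Wt1* was at least 3.28-fold lower. *Msln*, which epithelium can also make, read 0.55, 2.83 and -0.32 against -0.55 and 1.15. With probes well above background on all 5 arrays alone, the median of the list was -0.72, and without adjacent 2 it was -1.781. Pancreatic acinar genes, tested in 7 of 17 cases, had a median of -0.18 whose sign depended on the processing. *Cela1* was apart and higher (difference 1.87) and *Clps*, colipase, apart and lower (5.61, 5.92 and 6.18 against 5.16 and 2.81). Adipocyte genes, which would come with attached fat, had a median of -0.83 with 1 of 10 apart and higher, 2 apart and lower and none past 0.05 (1 higher and 2 lower at an unadjusted p under 0.05). It was -2.141 without small intestine 3, -0.321 without small intestine 2 and -0.030 within slide 1.

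**Figure D5:**
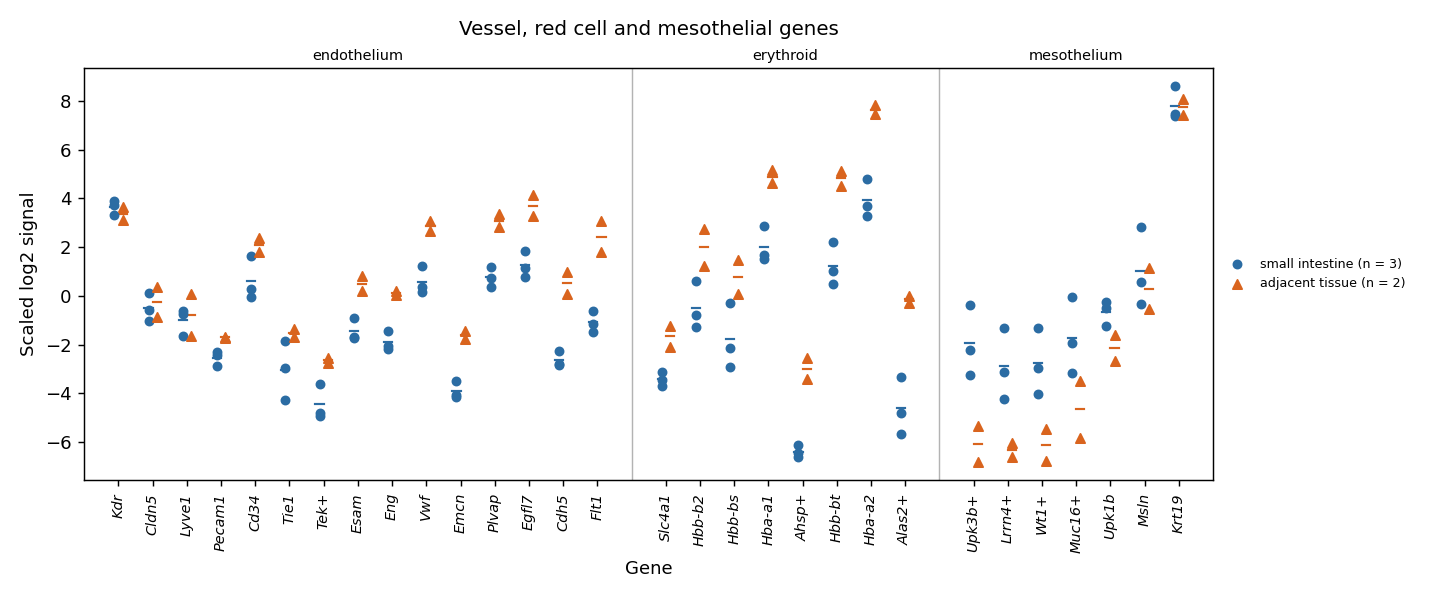
Scaled log2 signal of endothelial, erythroid and mesothelial genes on each of the 5 arrays, with circles for small intestine, triangles for adjacent tissue, short lines for group means and a plus sign after genes not well above background on all arrays. Both adjacent arrays lie above all small intestine arrays for *Flt1*, *Cdh5* and the globins, and the mesothelial genes lie lower apart from *Msln* and *Krt19*.

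Immediate early genes, which respond to stimulation and to handling of tissue within minutes, were lower in 11 of 14 cases (median -0.92, or -0.591 without small intestine 3, 7 apart and lower), and *Atf3*, *Klf4* and *Fosb* passed 0.05. The medians of the list overlapped, at 0.29, 0.16 and 0.77 in small intestine and 0.02 and 0.90 in adjacent tissue. Adjacent 2 thus lay above every small intestine array. *Atf3* read 2.09, 2.24 and 3.08 in small intestine and -1.29 and -0.69 in adjacent tissue (difference -3.46, adjusted p = 0.0384). *Klf4*, also a factor of villus and goblet cell maturation, read 5.43, 5.59 and 6.31 against 3.36 and 3.19 (difference -2.51, adjusted p = 0.0415). *Fos* and *Jun* differed by -1.91 and -1.46, while *Nr4a1* differed by 1.70 and *Egr1* by 1.23. Clock genes differed in both directions, with 1 apart and higher and 6 apart and lower of 15. *Dbp*, an output gene that peaks with E-box activity, read 0.50, 0.49 and -0.08 against 2.41 and 2.34 (difference 2.08, adjusted p = 0.0415), and *Nr1d2* differed by 0.97. *Arntl* (*Bmal1*), *Npas2* and *Nfil3*, which run in the opposite phase, differed by -1.45, -1.19 and -1.97 (adjusted p = 0.0514, 0.0939 and 0.0485), and *Cry1* was at least 6.08-fold lower. The hour at which mice were killed is not given in the sources used here, and its part was not tested.

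All 30 respiratory chain genes were nominally lower (median -0.64), 28 without overlap against 31.1% of all genes. Only 1 was apart, against 7.56% of all genes: *Cycs*, the gene of cytochrome c (difference -1.14). None passed 0.05, and 19 had an unadjusted p under 0.05 (17.9% of all genes on that side). Fatty acid oxidation had a median of -0.60 with 14 of 20 lower, and *Angptl4*, the lipoprotein lipase inhibitor that fasting and PPARs induce, read 5.87, 5.43 and 5.25 in small intestine and 2.49 and 2.44 in adjacent tissue, an 8.29-fold difference (-3.05, SE 0.26, adjusted p = 0.0286). Genes of xenobiotic metabolism were lower in 19 of 24 cases (median -0.79, 6 apart and lower, *Cyp3a44* past 0.05), with *Cyp2d26* at 7.69, 8.58 and 8.80 against 6.67 and 6.998 and the exporter *Abcg2* at 6.72, 5.85 and 6.03 against 4.93 and 4.55. The medians of this list overlapped, at 4.17, 5.10 and 5.78 in small intestine and 3.97 and 4.63 in adjacent tissue. Cholesterol synthesis separated small intestine 1 from the other healthy arrays (list medians 3.92, 1.69 and 1.40), with adjacent tissue in between (3.19 and 2.81), and its median difference of 0.38 was 0.021 without small intestine 2 and 0.854 without small intestine 1. Glycolysis and heat shock genes had medians of -0.27 and -0.23 whose signs depended on the processing, although *Hk2* and *Slc2a1* of glucose uptake and use were apart and higher (1.38 and 1.12). Among p53 targets (median -0.31), *Cdkn1a*, the cell cycle inhibitor p21, differed by -1.65 (adjusted p = 0.0548) and *Plk2* and *Phlda3* by 1.49 and 1.52. The other tested probe of *Cdkn1a* differed by -0.657. Prostaglandin genes had a median of -0.01, with *Ptgs2* not apart (0.61) and the degrading enzyme *Hpgd* at -1.09. Housekeeping genes had a median of -0.16, and of 16 only *B2m* was apart.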

How the data were processed

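RNA of whole tissue was hybridised to one-colour Agilent 8x60K mouse arrays and read with Feature Extraction 10.7.3.1 (build mm9, NCBI37). The deposited scanner files hold processed signals, which are intensities that the authors' software had corrected for background. The authors also deposited a table of normalized log2 values, used here as an alternative. Its columns of the authors' own fold changes and p-values and 28 other columns of per-sample values were not used.

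From the intensities, the log2 of each processed signal minus the array's 75th percentile over noncontrol probes was computed, and spots of a probe were averaged. A probe was kept where all arrays of adjacent tissue, or all of small intestine, had it well above background, giving 28826 probes and 21726 genes, of which 1676 passed through adjacent tissue alone and 481 through small intestine alone. A further 16 probes were dropped for an outlier flag on 1 of the 5 arrays. RefSeq accessions named 26582 of 55681 probes and the file's own names the others. A gene was read from its probe of highest mean.

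Adjacent tissue was tested against small intestine with limma 3.58.1 (lmFit and eBayes, R 4.3.3 with the package data.table, version 1.17.8) on these 5 arrays, with Benjamini-Hochberg adjustment over all probes tested, at a log2 difference of 1.2 and an adjusted p of 0.01. For single values the exact permutation test of 2 against 3 cannot go below p = 0.2 two-sided, so none is given. The test was checked on simulated data. Where a group was not well above background on any array, a fold is a lower bound: the brighter mean was set against a floor for each dim array, its dimmest detected probe or, if brighter, the probe in question. Tables and figures were made with python 3.11.15, pandas 2.3.3 and matplotlib 3.10.9. The number of arrays limits the precision.

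Named genes were those called, the 10 largest differences in each direction among genes measured on all 5 arrays without overlap, the 5 largest bounds in each direction, and up to 4 members of each list with the largest difference and no overlap, with defining members that went the other way. Other list members were named as examples after their values were seen. The lists and this rule were chosen with earlier results of these data known. A few genes are not reported here.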

Additional observations from a re-analysis of the deposited data

How the results depend on the processing

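Of 47 lists with a median, 34 kept their sign under every alternative run, and 195 of 196 named genes did. The exception was *Hprt*, at -0.45 on the main scale, 0.010 in the authors' normalized table and 0.006 after quantile normalization. All 196 named genes had been chosen for groups that did not overlap. Leaving out an array could therefore not turn the sign of a probe, and this count does not test the genes. The lists whose sign turned under some alternative were proximal, colonocyte, Paneth, antimicrobial, macrophage, smooth muscle, fibroblast, acinar, epididymis, heat shock, glycolysis, prostaglandin and housekeeping. The cause of the shifts given below was not tested.

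At an adjusted p of 0.01, the 2 overexpressed genes became 4 with quantile normalization, 1 without the filter, 1 with probes well above background on all 5 arrays, 94 in a fit of all 14 arrays, 295 with adenoma as a further group, 0 with the slide as a block and 0 on leaving out any array. The count of 0 underexpressed genes became 1 with quantile normalization, 45 with 14 arrays and 242 with adenoma added. At 0.05 there were 221 and 133 with or without the fold threshold. Reading these alternatives at 0.05 was chosen after seeing the data. It gave 90 higher and 65 lower genes in the authors' table, 341 and 476 with normexp, 13 and 4 without the filter, 1 and 0 with all 5 arrays required, 509 and 331 with 14 arrays, 1180 and 883 with adenoma added, 1 and 0 with the slide block, and 536 and 493 with an intensity trend. On leaving out an array it gave 0 to 95 higher and 0 to 19 lower.

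With the replicate block, 0 genes passed 0.01 by the label's number or by the title's. At 0.05 there were 174 higher and 58 lower genes by label number and 128 and 110 by title number. Deviations of same-numbered arrays correlated at 0.3222 and 0.1088 by label and -0.1088 and 0.2669 by title, and the numbers join different mice, so they do not pair the samples.

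Genes apart and higher were 1187 in the authors' table, 832 with normexp, 1242 with all 5 arrays required and 1601 to 2951 on leaving out an array, the most without adjacent 1. Genes apart and lower were 775 in the authors' table and 1318 to 2547 on leaving out an array, again the most without adjacent 1.

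Among medians, brush border was -0.908 with quantile normalization and endothelium 1.394 with normexp. Fibroblasts were 1.786 within slide 1 and -0.296 within slide 2, where 1 array faced 1. The fetal-like list was 1.217 in the authors' table, 1.034 with normexp, 1.318 with quantile, 0.886 with all 5 arrays required, 0.937 with the slide block, 1.385 over all probes, 1.227 relative to all genes, 1.340 and 1.242 within slides 1 and 2, and 1.122 to 1.574 on leaving out an array. Neutrophil genes were 0.633, 0.476, 0.717 and 0.419 in the authors' table, with normexp, without the filter and with all 5 arrays required, 0.807 within slide 2 and 0.949 to 1.602 on leaving out an array. Mesothelium was -1.175, -1.065 and -0.723 in the authors' table, with normexp and with all 5 arrays required, and -0.950 and -5.283 within slides 1 and 2. Leaving out an array gave 0.631 to 1.138 for plasma cells and 0.117 to 3.013 for mast cells, the ends without small intestine 3 and adjacent 2 respectively. Medians that moved by over 1.5 times in the authors' table and with quantile normalization, in that order, were respiratory chain at -0.313 and -0.329, fatty acid oxidation at -0.262 and -0.257, xenobiotic metabolism at -0.471 and -0.469, and unfolded protein response at -0.334 and -0.333. The gastric list was 1.469 in the authors' table and 1.481 with normexp.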

Other observations

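The families below lie outside the lists above and were chosen after their values were seen. Of 10 tested genes of the Adamts family, secreted proteases that cut matrix proteoglycans, 6 were apart and higher in adjacent tissue, against 8.78% of all genes. Of these 6, 2 passed the filter through adjacent tissue alone, which was the case for 3 of the 10. The median difference was 1.36. *Adamts4* read -2.62, -2.17 and -2.56 in small intestine and -0.08 and 0.12 in adjacent tissue (difference 2.47, adjusted p = 0.0345 in limma). *Adamts1* and *Adamts14* differed by 2.26 and 1.88 (adjusted p = 0.0467 for both), and *Adamts9* was not well above background in small intestine and was at least 8.23-fold higher in adjacent tissue (adjusted p = 0.0473). Of 6 genes of the Igfbp family, which hold insulin-like growth factors in tissue fluid, 5 were apart and higher and 1 apart and lower (median 1.78). The shares over all genes were 8.78% and 7.56%, and *Igfbp1* passed the filter through adjacent tissue alone. *Igfbp2* and *Igfbp3* differed by 3.20 and 2.23 (adjusted p = 0.0491 for both), and *Igfbp6* read 2.21, 4.07 and 1.09 in small intestine and -0.51 and -2.90 in adjacent tissue.

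All 7 H2al genes tested, near-identical histone H2A variant genes known from the testis whose probes may share signal, were apart and lower (median -1.90), against 7.56% of all genes. An adjusted p below 0.05 was reached by 5 of them, against 0.612% of all genes on that side. Of these 7 genes, 2 passed the filter through small intestine alone. Of 7 Pcdhb genes, clustered protocadherins that may also share signal, 6 passed the filter through adjacent tissue alone, which largely fixed their direction. *Pcdhb12*, measured on all 5 arrays, differed by 0.23 and overlapped. The Parp family had a median of -0.53 over 12 genes, in which *Parp14* read 4.56, 4.96 and 5.23 in small intestine and 2.78 and 3.08 in adjacent tissue (difference -1.99, adjusted p = 0.0457), and *Parp12* differed by -1.84 (adjusted p = 0.0415). Both are known as interferon-induced ADP-ribosyltransferases. The Ifitm family, that of the interferon-induced *Ifitm1*, went the other way (median 1.93). Of its 5 genes tested, 4 were apart and higher, against 8.78% of all genes. Of 29 keratins (median -0.06), *Krt14* differed by 3.27 (adjusted p = 0.0392), *Krt36* was not well above background in small intestine and was at least 4.25-fold higher in adjacent tissue (adjusted p = 0.0384), and *Krt20* of mature enterocytes differed by -1.46.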
